A study of Mus musculus with 4 samples.

Results

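The BCL2 family genes described here are 10 genes chosen by name for their part in cell survival and death: Bcl2, Bcl2l1, Mcl1 and Bcl2a1a, which protect cells, Bax and Bak1, which carry out the killing step, and Bcl2l11, Bid, Bbc3 and Pmaip1, which start it. They are 10 among the 18749 genes that could be named on the arrays. A probe was found for 9 of the 10, and all 9 were well above background on all 4 arrays. No probe for Bcl2a1a was found, so it has no value of its own below, and its paralogues Bcl2a1b and Bcl2a1c are described instead.

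RNA came from T helper cells made from naive CD4 T cells (CD44low, CD62Lhigh, CD25negative) of the spleens of C57BL/6J mice labelled female. The mice were either WT or Bach2 flox/flox carrying CD4-Cre, in which the Cd4 promoter drives the recombinase and so removes floxed Bach2 from the T lineage, in CD8 as well as CD4 T cells. Their age is not in the labels, and nothing used here says whether animals were pooled. All cells were stimulated for 2 days with 3 µg/ml anti-TCR-β and 1 µg/ml anti-CD28 and kept for 3 more days with 2.5 ng/ml IL-2. The cells marked (+) were then re-stimulated on immobilized anti-TCR-β for 4 h with no added IL-2, and those marked (-) were not. Each of the 4 conditions, WT (-), KO (-), WT (+) and KO (+), was measured on 1 one-colour Agilent array, with 53.6% to 54.0% of probes well above background and no saturated spot. Every value below is from 1 array per condition, so no difference has a replicate check and none was tested; a 2-fold difference is used only as a rule of size.

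A few features of the arrays touch every genotype value. The Bach2 probe read 2932 and 2633 in WT (-) and KO (-) and 3310 and 3080 in WT (+) and KO (+), log2 differences of -0.15 and -0.28, and so gave no clear check of the genotype; the samples are called KO-labelled for that reason. Of 4 Y-linked genes, none was well above background on either WT array and 3 were on both KO-labelled arrays, against the label female, while Xist read 9524 and 5221 in WT (-) and WT (+) and 4623 and 2585 in KO (-) and KO (+). Of 8 mast cell and basophil markers, 1 was well above background in WT (-), none in WT (+), and 5 on each KO-labelled array, with summed signals of 81.3, 56.0, 1207 and 1034; Ms4a2, Mcpt4 and Tpsb2 were on no array. Of 5 B cell markers, Cd79a, Ms4a1 and Pax5 were well above background on no array, and neither were Lyz2 and Itgam of 5 myeloid markers or Ncr1 and Klra4 of 4 NK cell markers. All 8 T cell markers were well above background on all 4 arrays. With 1 array each, sex, the share of other cells and genotype cannot be told apart in any KO-labelled against WT value, and their part in those values was not tested.

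BCL2 family proteins control whether the mitochondrial outer membrane stays intact. The anti-apoptotic members (BCL2, BCL-XL from Bcl2l1, MCL1 and A1) hold the effectors BAX and BAK in check, and the BH3-only proteins (BIM from Bcl2l11, BID, PUMA from Bbc3 and NOXA from Pmaip1) bind the protectors or the effectors and release pore formation, after which cytochrome c and the caspases follow. In T cells, cytokine signals are known to sustain BCL2, antigen receptor and co-stimulatory signals to induce BCL-XL and A1, and BIM to remove cells as a response ends.

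After 4 h of re-stimulation 4 of the 9 measured members differed by 2-fold or more, the same 4 in WT and in KO-labelled cells. Bcl2l1 and Bcl2l11 were higher and Bcl2 and Bbc3 were lower, so each side held a protector and a BH3-only gene. Among all genes, 13.2% were higher and 13.5% lower by 2-fold in WT, and 12.4% were higher and 13.0% lower in KO-labelled cells. Of the genes past 2-fold, 49.3% were higher in WT and 48.9% in KO-labelled cells; with each array scaled to its median these shares were 29.1% and 30.8%, and with scaling to the T cell gene Cd3e 71.5% and 67.7%. Scaled to Cd3e, Bcl2 and Bbc3 in WT stood at -0.88 and -0.94, and scaled to the median Bcl2l11 in KO-labelled cells stood at 0.95, each under the 2-fold rule with its direction kept. The median log2 difference of the 9 members was -0.31 in WT and -0.15 in KO-labelled cells, beside medians of -0.0052 and 0.0086 over all genes. In KO-labelled against WT cells no measured member passed 2-fold on the probe used for its gene, either before re-stimulation, when 5.26% of all genes were higher and 2.82% lower, or after it, when 5.17% were higher and 3.85% lower. After re-stimulation all 3 measured protectors were lower in KO-labelled cells, with a median log2 difference of -0.38. Of the 6 pro-apoptotic members, 4 were higher and 2 lower, with a median of 0.044. Among all 12348 genes, 6409 were higher and 5939 lower by any amount. The 4 higher were Bax (0.013), Bid (0.074), Pmaip1 (0.24) and Bak1 (0.47, with 0.024 on its second probe). The 2 lower were Bbc3 (-0.96) and Bcl2l11 (-0.84, with -0.076 on its second probe). Outside the 10 genes, the protector Bcl2l2 was higher, at 0.77, and the A1 genes Bcl2a1b and Bcl2a1c were near level, at 0.027 and 0.0030. The 4 comparisons share arrays in pairs, so their values are given side by side and not as separate evidence. In bulk RNA, fewer cells of a type and less of a transcript per cell cannot be told apart.

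**Figure D1:**
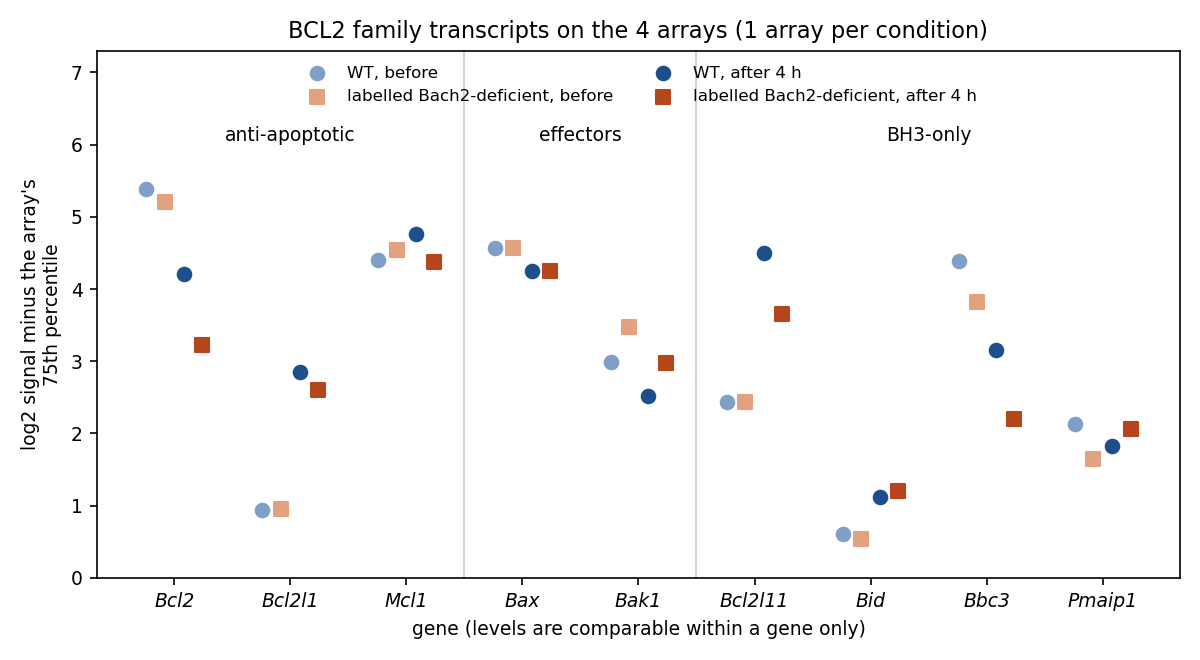
The vertical axis is the log2 signal minus the array's 75th percentile, for 9 genes on the horizontal axis grouped by role, with circles for WT and squares for KO-labelled cells, pale before and dark after 4 h of re-stimulation; each point is 1 array and levels can be compared within a gene only. Bcl2 and Bbc3 stand lower after re-stimulation, lowest in KO (+), Bcl2l1 and Bcl2l11 stand higher, and the 4 points of Bax lie within 0.33.

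Bcl2, the founding survival gene of the family, had the lowest value in re-stimulated KO-labelled cells. Its signals were 18270 in WT (-), 16077 in KO (-), 5786 in WT (+) and 3296 in KO (+). After scaling each array to its 75th percentile, Bcl2 was 2.26-fold lower with re-stimulation in WT (log2 -1.18) and 3.96-fold lower in KO-labelled cells (-1.99). The genotype difference was -0.18 before re-stimulation and -0.99 after it, where the 1.98-fold value fell just short of the 2-fold rule and 3.94% of genes were as low or lower. A second probe, for transcript NM_009741 and spotted 10 times, gave 14542, 12873, 3848 and 1931, and log2 differences of -0.17 and -1.17 by genotype and -1.44 and -2.44 by re-stimulation. Its spots on one array had SDs of 0.035 to 0.047 on the log2 scale, and both probes for Bcl2 gave the same order of the 4 samples.

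Bcl2l1, which encodes the protector BCL-XL, ran the other way with re-stimulation. The probe with the strongest signal read 834 in WT (-), 842 in KO (-), 2245 in WT (+) and 2148 in KO (+). Re-stimulated cells were 3.76-fold higher in WT (log2 1.91) and 3.14-fold higher in KO-labelled cells (1.65), while genotype differences were 0.02 before and -0.24 after. All 3 probes for NM_009743 were higher with re-stimulation, but they gave different sizes for the genotype difference after it: -0.24, -0.61 and -1.94. The last of these came from a dim probe, which read 39.7, 42.1, 225 and 66.1 in WT (-), KO (-), WT (+) and KO (+). The genotype size for Bcl2l1 after re-stimulation is therefore not settled by these probes.

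Mcl1, whose protein is short-lived and protects activated lymphocytes, moved little on its stronger probe. Signals were 9201 in WT (-), 10056 in KO (-), 8492 in WT (+) and 7339 in KO (+). The genotype difference was 0.14 before and -0.38 after re-stimulation, and the re-stimulation difference was 0.36 in WT and -0.15 in KO-labelled cells. A second probe gave 1983, 2992, 3118 and 3145 with genotype differences of 0.60 and -0.16 and re-stimulation differences of 1.13 and 0.37. The probes thus shared the sign of 3 of these 4 differences and differed on re-stimulation in KO-labelled cells.

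The effectors differed less. Bax, whose protein forms the mitochondrial pore, read 10344 in WT (-), 10328 in KO (-), 5920 in WT (+) and 6737 in KO (+). These came to genotype differences of 0.0044 and 0.013 and to re-stimulation differences of -0.32 in both genotypes; the SDs over its spots on one array were 0.040 to 0.075. Before scaling, the Bax signals of the re-stimulated arrays were the lower pair, as was the 75th percentile of those arrays (313 and 353, against 436 and 434). Bak1, the partner effector, read 3456, 4810, 1786 and 2783, higher in KO-labelled cells by 0.48 before and 0.47 after re-stimulation with re-stimulation differences of -0.47 in WT and -0.49 in KO-labelled cells. A second, dimmer Bak1 probe read 186, 184, 120 and 137 and gave genotype differences of -0.01 and 0.02, so the higher Bak1 of KO-labelled cells rests on 1 of its 2 probes.

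Among the BH3-only genes, Bcl2l11, which encodes BIM, was higher with re-stimulation in both genotypes. Its stronger probe read 2356 in WT (-), 2355 in KO (-), 7058 in WT (+) and 4437 in KO (+). The re-stimulation difference was 2.06 in WT (4.18-fold) and 1.21 in KO-labelled cells (2.32-fold), and the genotype difference went from 0.0060 before to -0.84 after, where 5.26% of genes were as low or lower. A second probe for the same transcript, NM_207680, read 103, 150, 896 and 959 and gave re-stimulation differences of 3.60 and 2.98 but genotype differences of 0.54 and -0.08. Both probes placed the re-stimulated samples above the others, and they disagreed on whether KO (+) lay below WT (+) by more than the error of 10% to 13% that the scanner software gave for single-spot member probes.

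Bbc3, which encodes PUMA, a target of p53 and FoxO factors, was lower with both re-stimulation and the KO label. It read 9149 in WT (-), 6152 in KO (-), 2788 in WT (+) and 1614 in KO (+), on its only probe. Re-stimulation differences were -1.23 in WT (2.35-fold lower) and -1.63 in KO-labelled cells (3.1-fold lower), and genotype differences were -0.57 before and -0.96 after. The value after re-stimulation, 1.95-fold, again lay just inside the 2-fold rule, with 4.11% of genes as low or lower. The 4 samples spanned 2.20 on the log2 scale.

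Pmaip1, which encodes the MCL1 antagonist NOXA, had genotype differences of opposite sign before and after re-stimulation. It read 1918 in WT (-), 1357 in KO (-), 1106 in WT (+) and 1477 in KO (+) on its only probe. The genotype difference was -0.49 before and 0.24 after, and re-stimulation differences were -0.31 in WT and 0.42 in KO-labelled cells. Bid, whose protein links death receptors to mitochondria once cleaved, read 666, 631, 680 and 808. Its genotype differences were -0.07 and 0.07, and re-stimulated cells were higher by 0.51 in WT and 0.66 in KO-labelled cells. Neither gene passed 2-fold in any of the 4 comparisons.

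**Figure D2:**
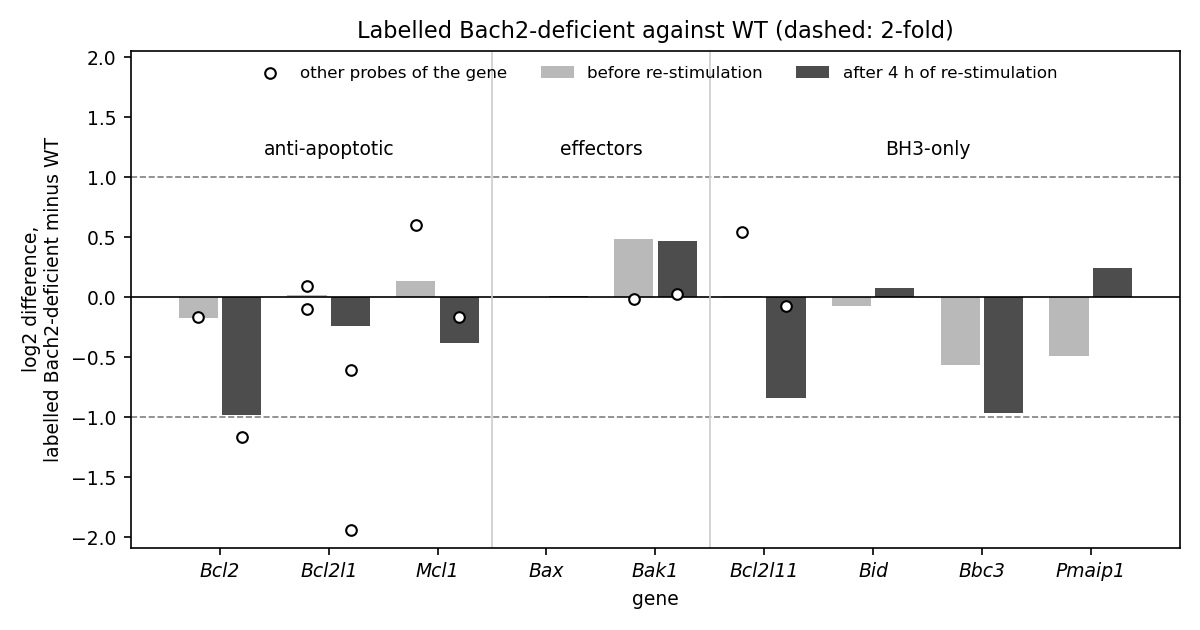
Bars give the log2 difference between KO-labelled and WT cells for the probe used for each gene, grey before and dark after 4 h of re-stimulation, open circles give the other probes of the same gene, and dashed lines mark 2-fold. Bcl2 and Bbc3 come closest to the lower line after re-stimulation, at -0.99 and -0.96, and the probes of Bcl2l1, Bcl2l11 and Bak1 spread widely.

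The re-stimulation differences of the 2 genotypes can be set against each other as the difference in KO-labelled cells minus that in WT. For Bcl2l11 this was -0.85, for Bcl2 -0.81, for Mcl1 -0.52, for Bbc3 -0.40 and for Bcl2l1 -0.26, and it was 0.74 for Pmaip1, 0.15 for Bid, 0.0083 for Bax and -0.02 for Bak1. On the probe used, no member reached 1 in size, which 4.82% of 10810 genes did. The dim Bcl2l1 probe gave -2.03, and the mean over the Bcl2l1 probes gave -0.93. For scale, the SD of this quantity between probes of the same gene had a median of 0.105 and a 90th percentile of 0.336 over the 3852 genes with several probes. That spread is between probes on the same RNA and leaves out any difference between animals or cultures.

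**Figure D3:**
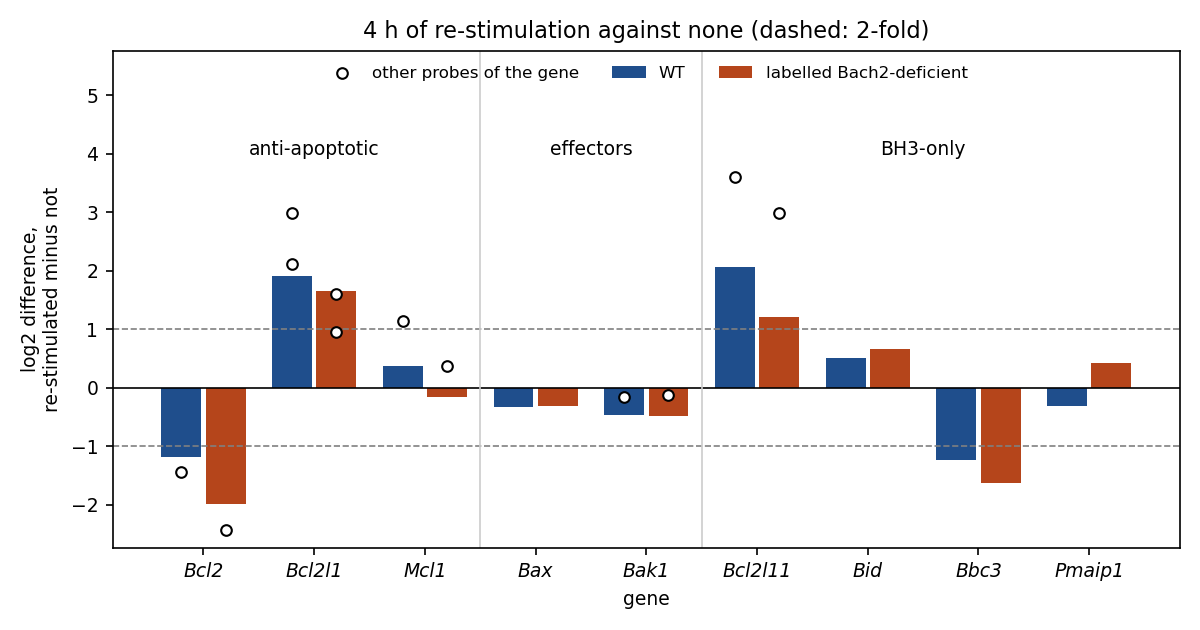
Bars give the log2 difference between re-stimulated and not re-stimulated cells, blue in WT and red in KO-labelled cells, with open circles for other probes of the gene and dashed lines at 2-fold. Bcl2 and Bbc3 lie below the lower line and Bcl2l1 and Bcl2l11 above the upper line in both genotypes, and Mcl1 and Pmaip1 have bars of opposite sign.

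The largest re-stimulation differences of the family were those of the A1 genes, though Bcl2a1a itself had no probe. The mouse carries several copies of this gene. A stretch before the transcription start is shown so that a reader can see how alike the copies are there. It does not say how alike the transcripts are, or whether each copy gives a working protein. The sequences, from RefSeq (GRCm38.p6), end 40 bases before the start of Bcl2a1a and Bcl2a1d, 84 before Bcl2a1b and 150 before Bcl2a1c, and they lie at chr9:88956780-88956879 (+), chr9:89199089-89199188 (+), chr9:114329885-114329984 (+) and chr9:88731891-88731984 (-) for a, b, c and d. Each is written 5′ to 3′ on the strand of its gene, and capitals mark bases that differ from Bcl2a1b.
Bcl2a1a: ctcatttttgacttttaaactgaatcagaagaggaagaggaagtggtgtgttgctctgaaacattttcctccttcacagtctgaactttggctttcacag
Bcl2a1b: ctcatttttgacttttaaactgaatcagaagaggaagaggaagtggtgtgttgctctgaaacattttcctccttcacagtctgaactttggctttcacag
Bcl2a1c: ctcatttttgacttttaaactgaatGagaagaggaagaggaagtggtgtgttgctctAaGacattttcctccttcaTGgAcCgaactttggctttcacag
Bcl2a1d: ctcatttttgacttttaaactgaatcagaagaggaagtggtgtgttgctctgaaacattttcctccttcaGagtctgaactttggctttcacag
Over this stretch Bcl2a1a was identical to Bcl2a1b at 100 of 100 bases, Bcl2a1c matched at 93, and Bcl2a1d matched at 93 and lacks 6. No probe was found for Bcl2a1d either, and whether transcripts of Bcl2a1a and Bcl2a1d bind the Bcl2a1b and Bcl2a1c probes was not tested, so the values below may belong to more than 1 copy.

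Bcl2a1b read 815 in WT (-), 2222 in KO (-), 50731 in WT (+) and 58319 in KO (+). It was 86.9-fold higher with re-stimulation in WT (log2 6.44) and 32.3-fold higher in KO-labelled cells (5.01). Bcl2a1c read 72.7, 186, 3991 and 4512 in the same order, 76.6-fold (6.26) and 29.9-fold (4.90) higher. With normexp background correction and quantile normalization, the Bcl2a1c values were 5.22 and 4.30. Both genes were higher in KO-labelled cells before re-stimulation, by 1.45 and 1.36, and level between genotypes after it, at 0.027 and 0.0030; the 1.36 of the dimmer Bcl2a1c was 0.81 with normexp, under the 2-fold rule. The KO-labelled minus WT difference in the re-stimulation value was -1.43 for Bcl2a1b and -1.36 for Bcl2a1c. A1 transcripts are also known from mast cells and myeloid cells. In KO-labelled cells mast cell and basophil markers were detected before and after re-stimulation. The myeloid marker Adgre1 was 2.23-fold higher there before it and 2.95-fold after, while Lyz2 and Itgam were well above background on no array. The part of such cells in the higher A1 signal was not tested.

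Of the 19 further family genes listed, 17 had a probe and 15 were well above background on at least 1 array; Bcl2l10 and Hrk were on none. In WT, 2 of the 15 were higher by 2-fold with re-stimulation (Bcl2a1b and Bcl2a1c) and 3 lower (Bik, Bcl2l12 and Bnip3). In KO-labelled cells the same 2 were higher and Bnip3, Bnip3l and Bcl2l12 lower. Among all genes, 13.2% were higher and 13.5% lower in WT, and 12.4% higher and 13.0% lower in KO-labelled cells. Between genotypes before re-stimulation, Bcl2a1b, Bcl2a1c and Bcl2l15 were higher and Bmf lower, beside 5.26% higher and 2.82% lower among all genes. After re-stimulation, Bcl2l15 was higher and Bnip3l lower, beside 5.17% higher and 3.85% lower among all genes. Bnip3l, a BH3-like protein of mitochondrial clearance, read 1915 in WT (-), 1629 in KO (-), 924 in WT (+) and 518 in KO (+), with genotype differences of -0.23 and -1.01, and its second probe gave -0.22 and -1.22. Its relative Bnip3 read 6053, 6122, 2115 and 1297, with genotype differences of 0.02 and -0.88 and re-stimulation differences of -1.04 and -1.94. Bcl2l15 was dim at 43.1, 85.9, 35.2 and 80.2 and differed by 1.00 and 1.01 between genotypes. Bmf, a BH3-only gene, read 77.8, 35.8 and 28.4 in WT (-), KO (-) and WT (+) and was not well above background in KO (+) on the probe used, while its other 2 probes were dimmer on average and did not share its order.

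**Figure D4:**
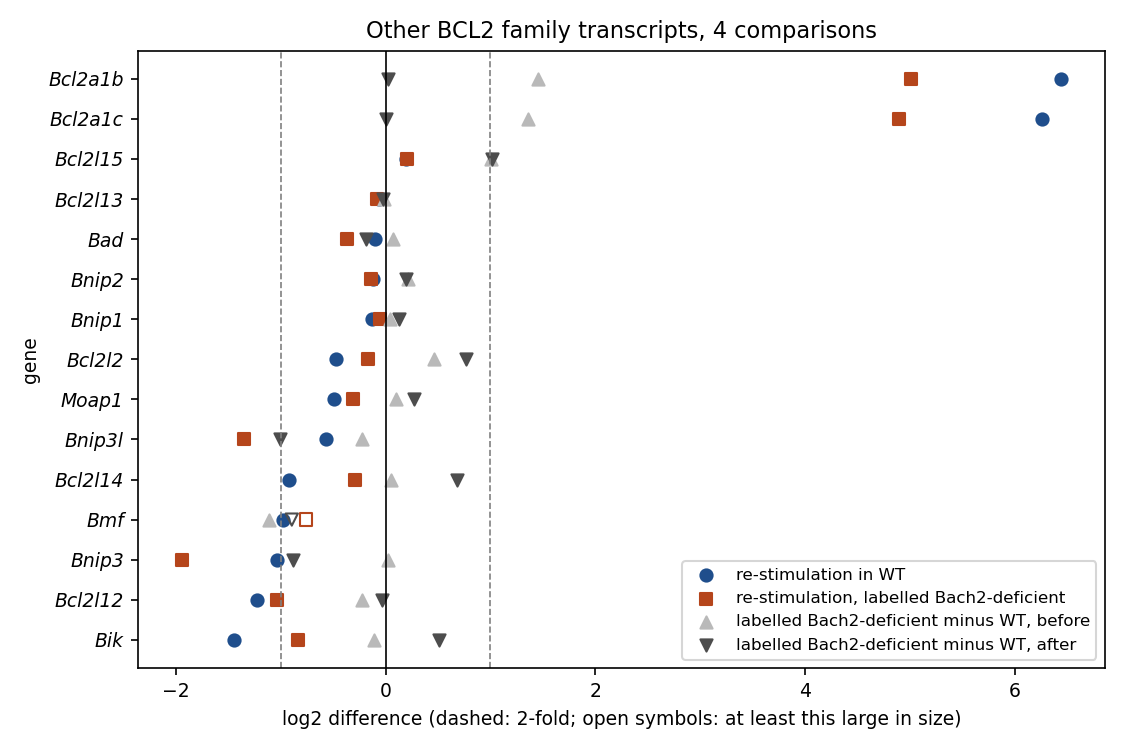
Each row is 1 of 15 other family genes and the horizontal axis is the log2 difference; circles and squares give re-stimulation in WT and in KO-labelled cells, triangles the genotype difference before (pale) and after (dark), and open symbols are bounds. Bcl2a1b and Bcl2a1c stand at 6.44 and 6.26 in WT, the other 13 genes lie between -1.94 and 1.01.

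A pair of short promoter stretches are shown for the BH3-only genes that moved in opposite directions with re-stimulation, since FoxO factors, which bind forkhead sites, are known to regulate both. The forkhead letters TGTTTAC were searched on both strands in windows from 250 bases before to 50 after each start, and capitals mark them (GTAAACA is the same site on the other strand); the search was chosen after the values were seen.
Bcl2l11, chr2:128125801-128125827, + strand: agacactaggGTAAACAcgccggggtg
Bbc3, chr7:16310084-16310110, + strand: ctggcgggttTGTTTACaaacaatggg
They begin 227 and 167 bases before the annotated starts of these transcripts in RefSeq (GRCm38.p6). The letters occurred in 2 of 35 family promoters, of 25 genes, and in 3.65% of all 32851 promoters. The AP-1 letters TGAGTCA or TGACTCA occurred in none of the 35 and in 5.20% of all. A match is a description of the letters and says nothing of binding. Foxo1 itself read 6739 in WT (-), 5289 in KO (-), 3451 in WT (+) and 5153 in KO (+), with genotype differences of -0.34 and 0.40.

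Downstream of the mitochondrion, the caspase and apoptosome list had 17 genes, all measured. Their median re-stimulation difference was -0.43 in WT and -0.37 in KO-labelled cells. Casp9 was 2-fold lower in WT, and Casp9 and Apaf1 were in KO-labelled cells, where Casp6 was 2-fold higher. The gene of this list that is not reported here is left out of these names. Among all genes, 13.5% were lower in WT, and 13.0% were lower and 12.4% higher in KO-labelled cells. Casp9, the initiator that the apoptosome activates, read 1165, 906, 138 and 185, with re-stimulation differences of -2.60 in WT and -1.99 in KO-labelled cells. Between genotypes, 5.26% of all genes were higher and 2.82% lower before re-stimulation, and 5.17% higher and 3.85% lower after it. Casp6, an executioner, read 2515, 3419, 1576 and 5604 and was the only one of the 17 past 2-fold between genotypes, at 1.66 after re-stimulation and 0.45 before. Its re-stimulation differences were -0.19 in WT and 1.01 in KO-labelled cells. Apaf1, the apoptosome scaffold, had re-stimulation differences of -0.996 and -1.13 in WT and KO-labelled cells.

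Of the inhibitors of apoptosis and Cflar, 8 of 10 were measured and none passed 2-fold between genotypes. Birc3, an NF-kB target, was higher with re-stimulation by 1.62 in WT and 1.31 in KO-labelled cells, and Cflar, which blocks caspase-8, by 1.36 and 1.45. Birc5, the survivin gene of dividing cells, had -0.86 and -1.41, and Naip2 had -1.02 and -0.83. By 2-fold, 2 of the 8 were higher and 1 lower with re-stimulation in each genotype. Their median was 0.24 in WT and -0.25 in KO-labelled cells. Of 10 death receptor and ligand genes, 5 were higher and 1 lower by 2-fold with re-stimulation in WT and 4 higher and 1 lower in KO-labelled cells. Among all genes, 13.2% were higher and 13.5% lower in WT, and 12.4% higher and 13.0% lower in KO-labelled cells. Tnf was higher by 3.40 and 4.21, Fasl by 3.33 and 2.45, and Fas by 1.73 and 2.42. Between genotypes, Tnfrsf1b was higher by 1.02 before re-stimulation and Tnfsf10 by 1.15 after it. Among all genes, 5.26% were higher and 2.82% lower by 2-fold between genotypes before re-stimulation, and 5.17% higher and 3.85% lower after it. A second, dimmer Tnfrsf1b probe gave 0.29 before re-stimulation, under the 2-fold rule.

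Of 11 p53 and FoxO genes, 10 were measured, and on the probe used 1 passed 2-fold: Cdkn1a, higher with re-stimulation by 1.14 in WT. Klf2, a FoxO target, did not pass on the probe used, with genotype differences of 0.11 and 0.0015 and re-stimulation differences of 0.22 and 0.11. Its second probe read 20130 in WT (-), 8937 in KO (-), 6345 in WT (+) and 768 in KO (+), for genotype differences of -1.16 and -3.22 and re-stimulation differences of -1.19 and -3.24, so its probes conflict. Trp53 differed by 0.03 and -0.17 between genotypes. Of 16 survival signalling genes 14 were measured, and 5 were 2-fold higher with re-stimulation in each genotype (Il2, Nfkb2, Rela, Relb and Stat5a). Il4ra was 2-fold lower in KO-labelled cells. Among all genes, 13.2% were higher in WT and 12.4% in KO-labelled cells, where 13.0% were lower. Stat5a, which carries IL-2 signals, read 1359, 1314, 8772 and 11039, higher by 3.17 and 3.37. Il7r, the receptor whose signal is known to sustain Bcl2, read 494 in WT (-), 4165 in KO (-), 616 in WT (+) and 2560 in KO (+), and was the only one of the 14 past 2-fold between genotypes, at 3.08 and 1.88. The shares of all genes 2-fold higher between genotypes were 5.26% before re-stimulation and 5.17% after it, with 2.82% and 3.85% lower.

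Of 10810 genes that every array measured well above background, those whose 4 values lay closest to a member's after centring were found for the 3 members with the widest ranges on the probe used. For Bbc3 they were Ccna2 and Grhpr, with largest deviations of 0.046 and 0.061 on the log2 scale. For Bcl2 they were Esco2 and Dck (0.035 and 0.068), and for Bcl2l11 Tbc1d30 and Fscn3 (0.064 and 0.14). With 4 arrays such likeness is a description of these samples only.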

How the data were processed

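The deposited scanner files hold one-colour intensity values that Agilent Feature Extraction 10.7.3.1 had corrected for background and detrended. A further deposited table holds log2 values, which came within 0.01 of the log2 signal minus the array's 75th percentile for 41001 to 41026 of 41173 probes. All 4 arrays came from 1 slide and 1 scan time.

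Spots flagged as outliers (107 to 120 per array) and control spots were left out, spots of a probe were averaged, and each array's 75th percentile was subtracted on the log2 scale. Probes were named through RefSeq accessions (GRCm38.p6): 27479 of 41173 (66.7%), for 18749 genes. A gene took its probe with the highest mean. A gene entered a comparison if well above background on at least 1 of its arrays; the other array's value, if dimmer, was set to that array's lowest signal well above background (14.5 to 17.2), which makes that difference a bound. The number of arrays, 1 per condition, limits the precision and allows no test.

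The members and lists were chosen with earlier results of these data known. Named in the text are all members, the family genes past 2-fold and some others of the family. Up to 4 genes past 2-fold are named per further list, with Il7r beyond the 4. Trp53, Foxo1, Klf2, Rela, Il4ra and Tnfrsf1b were added after their values were seen. One gene of the caspase list is not reported here. The code was tested on simulated data. Alternatives were other scalings, normexp with quantile normalization, the authors' log2 table, other filters, the mean over probes and a 3-fold rule. Python 3.11.15, numpy 2.4.6, pandas 2.3.3, R 4.3.3 and limma 3.58.1 were used.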

Additional observations from a re-analysis of the deposited data

Results flagged for a closer look

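Mcl1 and Pmaip1 had differences of opposite sign under the same contrast, with 1 array on each side, and the difference between the contrasts was not tested. For Mcl1 the KO-labelled minus WT difference was 0.14 before and -0.38 after re-stimulation, and the re-stimulation difference was 0.36 in WT and -0.15 in KO-labelled cells. For Pmaip1 these values were -0.49 and 0.24, and -0.31 and 0.42. A second Mcl1 probe gave 0.60 and -0.16 by genotype and 1.13 and 0.37 by re-stimulation. The opposite signs of Mcl1 by re-stimulation thus rest on 1 of its probes. Under the alternatives, Mcl1 with re-stimulation in KO-labelled cells ranged from -0.42 to 0.11.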

How the results depend on the processing

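Under the alternatives a value was called the same if it stayed within the median SD between probes of its comparison, and a count if within 1.5 times. A value larger than that SD whose sign changed was called reversed, and the rest moved. A value smaller than that SD could change sign and still be called the same. Of 116 counts and medians of the members, 104 were the same, 10 moved and 2 reversed. Of 477 values of single genes, 393 were the same, 82 moved and 2 reversed. Scaling to the median gave 1 member 2-fold lower in KO-labelled cells after re-stimulation (Bcl2), 1 in place of 2 higher with re-stimulation in KO-labelled cells (Bcl2l1, with Bcl2l11 at 0.95), and member medians of -0.61 in WT and -0.42 in KO-labelled cells. Scaling to Cd3e gave a member median of 0.14 between genotypes before re-stimulation, no member 2-fold lower with re-stimulation in WT (0 in place of 2), a median of -0.017 there, and a median of 0.10 in KO-labelled cells, with Mcl1 there also at 0.10. The mean over probes gave 1 member 2-fold lower after re-stimulation between genotypes, and a median of 0.11 for re-stimulation in KO-labelled cells, with Mcl1 again at 0.11. A 3-fold rule left 0 members lower in WT and 1 higher in KO-labelled cells. Under the alternatives the genotype difference after re-stimulation ranged from -1.08 to -0.89 for Bcl2, from -0.88 to -0.46 for Bcl2l11, from -0.99 to -0.87 for Bbc3 and from -0.93 to -0.14 for Bcl2l1. Scaling to the median moved the median of all genes by -0.297 in WT and -0.265 in KO-labelled cells for re-stimulation, and scaling to Cd3e by 0.296 and 0.256, and by 0.138 for genotype before it. The share of 2-fold genes that were higher with re-stimulation, 49.3% in WT and 48.9% in KO-labelled cells, was 29.1% and 30.8% with the median, 71.5% and 67.7% with Cd3e, and 59.5% and 59.7% with no filter. All-gene counts moved by over 1.5 times as follows. For genotype before re-stimulation, with 638 higher and 342 lower, normexp gave 263 and 115, no filter 1212 and 686, and requiring both arrays above background 425 and 221. For genotype after it, with 638 and 476, they were 310 and 243 with normexp and 1437 and 1024 with no filter. For re-stimulation in WT, 1630 higher became 856 with normexp, 2951 with no filter and 2490 with Cd3e, and 1673 lower became 2664 with the median and 993 with Cd3e. In KO-labelled cells, 1534 higher became 829 with normexp and 2890 with no filter, and 1606 lower became 1043 with Cd3e. No paired analysis was possible because each condition has 1 array. Dim probes have the least signal over background and limit the values of Bmf, Bcl2l15 and the dimmer probes of Bcl2l1 and Bak1.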
